A study of Mus musculus with 4 samples.

Results

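The 42 genes described here encode Polycomb and Trithorax group chromatin proteins: the subunits of Polycomb repressive complexes 1 and 2 (PRC1 and PRC2), the COMPASS family of H3K4 methyltransferase complexes, the H3K27 demethylases and the H2A deubiquitinase Bap1. They were taken by gene symbol, by a rule that uses no measured value, and all 42 were found among the 54838 gene identifiers of the count tables. RNA was sequenced from E14Tg2a.4 mouse embryonic stem cells of strain 129/Ola and from a knock-in line derived from them, MLC460. In MLC460 the endogenous histone acetyltransferase and coactivator p300 is tagged at the N-terminus with mEGFP, a monomeric green fluorescent protein, inserted with CRISPR/Cas9. Each line gave 2 libraries, called wild-type 1 and 2 and knock-in 1 and 2. Both lines were grown on gelatin, in serum with leukemia inhibitory factor. Only 1 knock-in line was sampled, so anything that differed between MLC460 and its parent for another reason cannot be told apart from the tag.

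Polycomb proteins keep developmental genes silent. PRC2 methylates histone H3 at lysine 27 through EZH1 or EZH2, which need EED and SUZ12, and PRC1 ubiquitinates histone H2A through RING1 or RNF2 (RING1B) paired with a PCGF protein. Canonical PRC1 contains a CBX protein that reads the PRC2 mark and a PHC protein that links complexes together, while variant PRC1 contains RYBP or YAF2 in place of CBX. Trithorax proteins oppose this: the KMT2 and SETD1 enzymes methylate histone H3 at lysine 4 with a shared core of WDR5, RBBP5, ASH2L and DPY30. Most of these subunits come from small paralog families, and which paralog a cell uses is known to differ between pluripotent and differentiated cells.

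Counts assigned to genes ranged from 18946731 to 26553998 per library. Transcripts of 7 embryonic stem cell markers, among them Pou5f1, Sox2 and Nanog, summed to 5513 to 6002 CPM (counts scaled to library size, with edgeR's TMM factors) in the 4 libraries. The tagged gene, Ep300, had 209 and 210 CPM in wild-type 1 and 2 and 181 and 210 CPM in knock-in 1 and 2, with a log2 fold change of knock-in over wild-type of -0.10 (SE 0.15, edgeR adjusted p = 0.804). Wild-type 2 stood apart from the other libraries: among tested genes of at least 10 CPM, its deviation from the mean of the others followed the GC content of the transcript (Spearman rho = 0.79, across genes, which are not independent replicates). Values without it are given beside the members with the smallest p-values and some others. The summed level of 8 fibroblast or feeder markers was 38.1 and 40.4 CPM in wild-type and 23.7 and 26.1 CPM in knock-in libraries, with Lum at 0 in all of them. Most of it was Thy1 and Pdgfrb. Of the 5 tested, 1 was above 0, Pdgfra. That of 8 primitive endoderm markers was 338 and 380 against 213 and 233 CPM, most of it Lama1 and Col4a1. The others, Gata6, Gata4, Sox17, Sox7, Pdgfra and Dab2, averaged from 0.27 (Sox17) to 2.71 CPM (Sox7). Of the 7 tested, 2 were above 0, Gata4 (0.22, SE 0.39) and Pdgfra (0.15, SE 0.40). Col4a1 had a log2 fold change of -1.10 (edgeR adjusted p = 0.0554, and 0.00392 with the GC correction below). Among 6 trophoblast markers the keratin gene Krt19 was lower in knock-in libraries (-1.59, SE 0.21, edgeR adjusted p = 0.0478), while their sum was 62.9 to 68.6 CPM. Of the 4 trophoblast markers tested, 2 had values above 0. These were Hand1 (0.54, SE 0.35) and Tfap2c (0.42, SE 0.16, edgeR adjusted p = 0.430, and 0.0434 with the GC correction). The part of such cells in the differences below was not tested, and in bulk RNA fewer cells of a type cannot be told apart from less RNA per cell.

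Promoter sequences were available from RefSeq (GRCm38.p6) for 34 of the 42 genes. The 250 bases before the annotated start are shown for 2 families in which 1 paralog was far more abundant than another, CBX (Cbx7 over Cbx8) and RING (Rnf2 over Ring1). They run 5′ to 3′ on the gene's strand, with each CpG (the letters CG, which read the same on both strands) in capitals. The windows are chr15:79932647-79932896 for Cbx7, chr11:119040914-119041163 for Cbx8, chr1:151500992-151501241 for Rnf2 and chr17:34024681-34024930 for Ring1, all on the minus strand.
Cbx7: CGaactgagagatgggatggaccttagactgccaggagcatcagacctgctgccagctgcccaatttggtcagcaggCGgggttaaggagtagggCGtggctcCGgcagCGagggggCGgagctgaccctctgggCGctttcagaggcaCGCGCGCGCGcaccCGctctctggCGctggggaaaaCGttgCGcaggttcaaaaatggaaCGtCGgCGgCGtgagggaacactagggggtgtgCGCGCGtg
Cbx8: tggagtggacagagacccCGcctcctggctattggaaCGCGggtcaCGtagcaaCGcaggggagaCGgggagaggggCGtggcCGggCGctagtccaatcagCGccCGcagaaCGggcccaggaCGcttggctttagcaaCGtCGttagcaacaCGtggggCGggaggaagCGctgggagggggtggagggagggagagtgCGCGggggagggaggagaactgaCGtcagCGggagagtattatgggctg
Rnf2: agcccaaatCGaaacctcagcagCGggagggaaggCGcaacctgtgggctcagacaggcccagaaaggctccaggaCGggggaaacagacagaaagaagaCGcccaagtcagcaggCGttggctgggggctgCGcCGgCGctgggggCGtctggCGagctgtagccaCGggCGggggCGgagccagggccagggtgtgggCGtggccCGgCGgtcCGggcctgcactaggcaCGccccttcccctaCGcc
Ring1: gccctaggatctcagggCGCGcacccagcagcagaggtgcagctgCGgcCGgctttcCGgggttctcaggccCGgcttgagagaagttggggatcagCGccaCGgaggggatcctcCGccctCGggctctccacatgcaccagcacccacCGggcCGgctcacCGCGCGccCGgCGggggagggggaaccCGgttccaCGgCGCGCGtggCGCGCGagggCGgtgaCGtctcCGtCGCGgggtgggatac
CpG number was not higher in step with the level within these pairs. The window of Cbx7 held 23 CpGs and that of the scarce Cbx8 held 22, while Rnf2 had 20 and the less abundant Ring1 had 30. Taking the richest window of each gene, 22 of the 34 members (64.7%) had at least 20 CpGs, against 38.3% of 11034 tested genes with a window and 19.7% of all 27025 genes with one. The 34 members had 50 windows and the 27025 genes had 32851, and more windows per gene can raise the richest. The median was 23 CpGs for the members and 17 for the tested genes. The other 12 members had 5 (Pcgf2) to 16 (Pcgf3) and included abundant ones: Phc1 had 8 CpGs, Men1 and Rbbp5 had 10, Wdr5 and Eed had 12, and Pcgf6 had 14. For 39 of the 50 member windows, the bases after the start were found in a GENCODE transcript of the gene. Those of Rnf2, Phc1 and Wdr5 were not. The windows of Phc1, Pcgf2 and Cbx7 lay inside the GENCODE gene, as did those of other members, among them Ezh2, Cbx6, Jarid2 and Setd1a. Their CpG numbers may not describe the start in use. Such windows are among those with at least 20 CpGs, so this limit also applies to the 64.7%.

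Within most families 1 paralog supplied the bulk of the transcripts in every library. Levels between genes are compared in TPM, a transcript abundance per length: the count divided by the length of the gene's merged exons and rescaled so that every library has the same total. By mean TPM over the 4 libraries, 33 of the 42 members lay above the median of the 15191 tested genes (13.1 TPM) and 20 lay above the upper quartile (43.8 TPM). They ranged from 0.426 TPM for Cbx8 to 429.7 TPM for Dpy30. A family share below is the gene's part of the summed TPM of its listed paralogs, as mean ± SD over all 4 libraries.

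**Figure D1:**
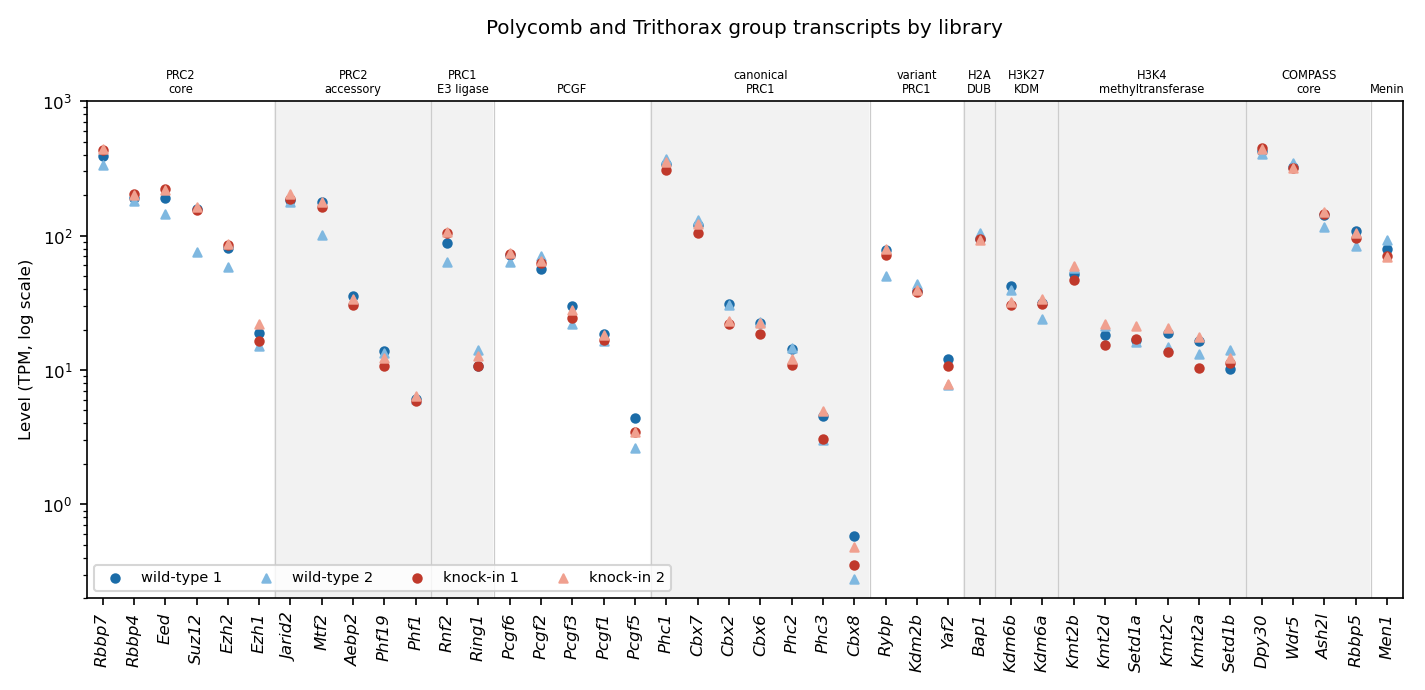
Level of each of the 42 genes in TPM (log scale) in the 4 libraries, ordered by mean level within each functional group (DUB, deubiquitinase; KDM, demethylase). Points of 1 gene lie close together compared with the distance between paralogs such as Cbx7 and Cbx8 or Phc1 and Phc3, and wild-type 2 (light triangles) lies lowest for Suz12, Mtf2 and Rybp.

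Ezh2, which encodes the PRC2 methyltransferase typical of dividing cells, had 81.2 and 58.6 TPM in wild-type 1 and 2 and 85.1 and 86.1 TPM in knock-in 1 and 2. Its paralog Ezh1, whose protein is a weaker methyltransferase found mainly in resting cells, had 18.9, 15.0, 16.4 and 22.1 TPM in the same order. Ezh2 thus made up 81.0% ± 2.01 of the pair, and its lowest library lay above the highest of Ezh1. With merged exon lengths, the scaffold genes of PRC2 had more TPM than either enzyme. For Suz12 over Ezh2 this order rests on the length used. Merged exons span 4945 bases for Suz12 and 6678 for Ezh2, while the longest transcripts have 4373 and 2787 bases. Eed, whose protein binds the H3K27 mark, had 189, 145, 223 and 216 TPM, and Suz12 had 158, 75.1, 154 and 164 TPM. Wild-type 2 gave the lowest value for both. The histone-binding subunits Rbbp7 and Rbbp4 averaged 399.9 and 194 TPM, but they also serve other chromatin complexes. Rbbp7 made up 67.2% ± 1.57 of that pair by TPM and 40.6% by CPM, so their order rests on the length scaling. A stretch of 42% of the longest Rbbp7 transcript has a near-identical copy in Gm6382 (at least 97% identity over at least 100 bases), so reads of the 2 loci may be hard to tell apart, and 82.0% of the Rbbp4 exon bases are free of other genes.

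The accessory subunits of PRC2 were led by Jarid2 and Mtf2. Jarid2, which guides PRC2 to chromatin and marks the form called PRC2.2, had 186, 179, 186 and 204 TPM. Its partner Aebp2 had 35.4, 33.0, 30.3 and 33.9 TPM. Among the Polycomb-like proteins of PRC2.1, which bind CpG-rich DNA, Mtf2 made up 88.7% ± 3.31. Mtf2 had 178, 101, 164 and 177 TPM, again lowest in wild-type 2, while Phf19 averaged 12.6 and Phf1 6.11 TPM. Phf1 shares exon bases with Cuta, and only 60.7% of its exon bases are free of other genes, where reads are counted without ambiguity, so its level is uncertain.

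PRC1 transcripts came mainly from Rnf2, Pcgf6, Pcgf2, Cbx7 and Phc1. Rnf2, the E3 ligase, had 88.0, 63.1, 105 and 106 TPM and Ring1 had 10.8, 14.1, 10.7 and 12.7 TPM, so Rnf2 was 87.7% ± 4.04 of the pair. The PCGF proteins decide which PRC1 subtype forms. Pcgf6, a subunit of a variant PRC1, had 71.9, 63.6, 73.5 and 73.6 TPM, and Pcgf2 (MEL18), a PCGF of canonical PRC1, had 56.1, 70.6, 62.6 and 64.7 TPM. Their ranges overlapped, and in wild-type 2 their order was the reverse of that in the other 3 libraries. Pcgf3 followed with 26.2 TPM on average, then Pcgf1 with 17.5 and Pcgf5 with 3.47 TPM, each below the lowest library of the one before it. The place of Pcgf3 rested on the length: its share was 14.4% with merged exons, 47.7% with the median transcript length, where it led the family, and 27.7% without length scaling, above Pcgf2 (24.9%). The value for Pcgf1 is uncertain, because 83.2% of its longest annotated transcript has a near-identical copy in Gm8930. Bmi1 (PCGF4), the other PCGF gene of canonical PRC1, is not among the members and stands outside this order and these shares. It had 5.73, 3.63, 4.21 and 4.84 TPM.

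**Figure D2:**
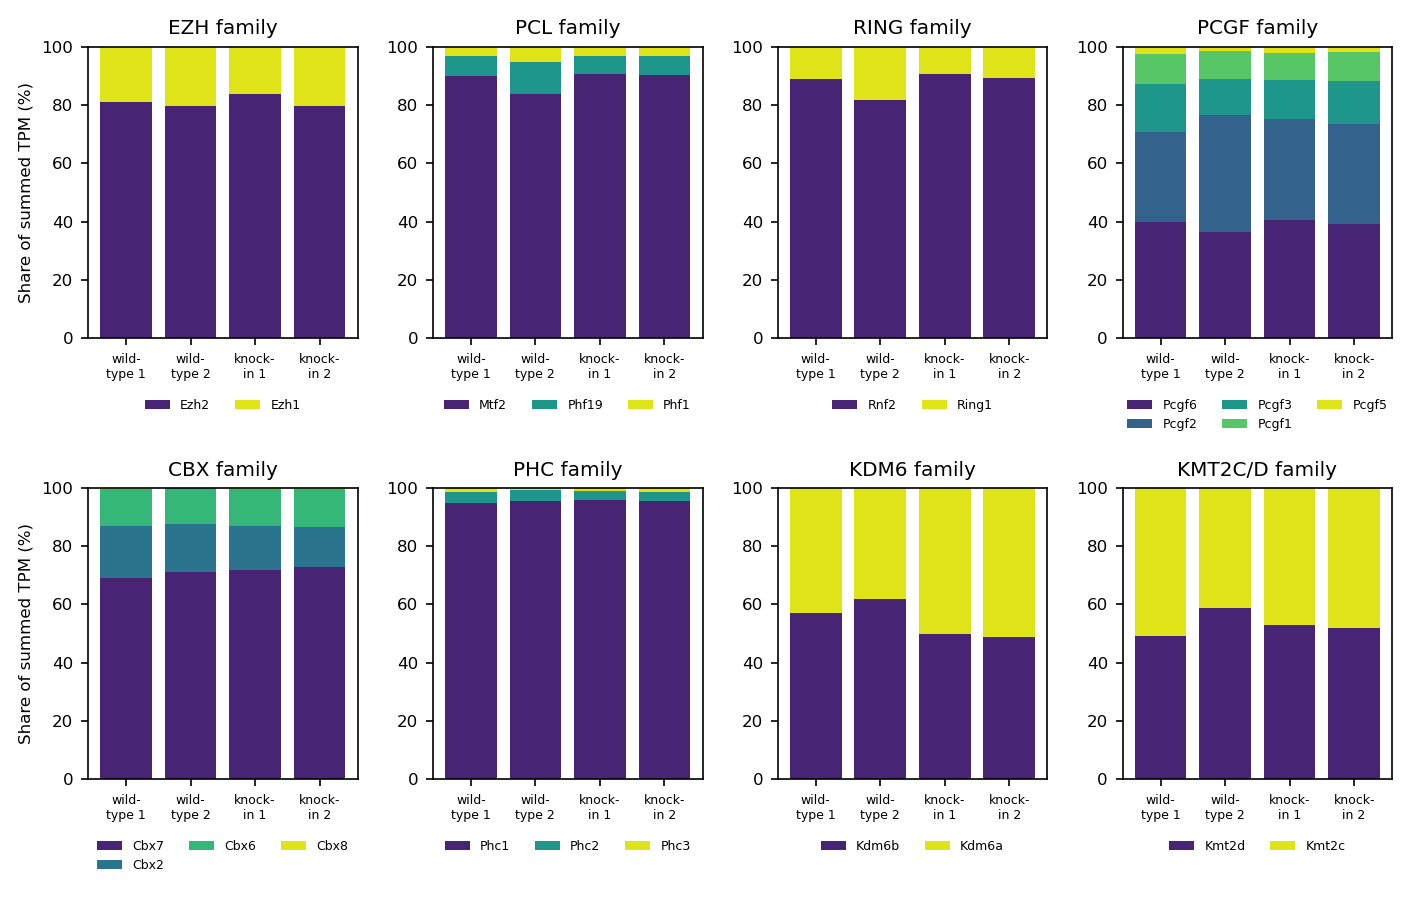
Share of each paralog in the summed TPM of its family (percent, stacked bars from 0 to 100) in each of the 4 libraries, for 8 families. Ezh2, Mtf2, Rnf2, Cbx7 and Phc1 dominate in all libraries, Cbx8 is too scarce to be seen, and Kdm6b and Kdm6a as well as Kmt2d and Kmt2c share their families nearly evenly.

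Among the CBX genes, whose chromodomain proteins read H3K27 methylation, Cbx7 had 121, 132, 105 and 123 TPM. It made up 71.2% ± 1.62 of the 4 genes listed. Cbx2 (30.9, 30.5, 21.8 and 23.0 TPM) and Cbx6 (22.5, 22.8, 18.6 and 22.2 TPM) followed with ranges that overlapped. Cbx8 was represented by only 17, 7, 10 and 10 reads, a mean of 0.426 TPM, and lay at the 3.36 percentile of tested genes although its neighbour on chromosome 11, Cbx2, was at the 64.5 percentile. The PHC genes encode polymerising subunits. Phc1 had 343, 372, 310 and 351 TPM, 95.3% ± 0.40 of its family, against 13.0 TPM for Phc2 and 3.89 TPM for Phc3 on average.

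In variant PRC1, Rybp had 77.6, 49.9, 72.0 and 79.9 TPM and its paralog Yaf2 had 12.1, 7.79, 10.7 and 7.89 TPM, a share of 87.8% ± 2.17 for Rybp. Kdm2b, whose CXXC domain brings the Pcgf1 form of PRC1 to CpG islands, had 38.7, 43.8, 37.8 and 39.1 TPM. Bap1, which removes the H2A ubiquitin mark, had 94.5, 104, 93.9 and 92.1 TPM.

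The H3K27 demethylase genes Kdm6b (JMJD3) and Kdm6a (UTX) were present at like levels. Kdm6b had 41.98, 39.2, 30.6 and 32.2 TPM and Kdm6a 31.7, 24.0, 30.7 and 33.9 TPM. Their order was not settled: Kdm6b made up 54.4% ± 6.24 with merged exon lengths and 47.0% with the length of the longest transcript.

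The catalytic COMPASS genes had lower levels than their shared core. Dpy30 and Wdr5 averaged 429.7 and 326 TPM, Ash2l 138 and Rbbp5 98.1 TPM. The highest methyltransferase gene, Kmt2b (MLL2, the enzyme of bivalent promoters in embryonic stem cells), had 51.9, 57.0, 46.4 and 59.0 TPM. It exceeded its paralog Kmt2a (16.5, 13.2, 10.4 and 17.7 TPM) in every library, with a share of 78.9% ± 2.94. Kmt2d and Kmt2c, the enzymes of enhancers, averaged 19.1 and 16.9 TPM with overlapping ranges. Setd1a and Setd1b averaged 17.8 and 11.97 TPM, but only 47.7% of the Setd1a exon bases are free of other counted genes. Menin, the adaptor of the Kmt2a and Kmt2b complexes, is encoded by Men1, which had 78.8, 92.6, 70.5 and 69.4 TPM.

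The longest members also separated the knock-in libraries from each other. Of 7 members with a transcript over 8 kb, all 7 had more CPM in knock-in 2 than in knock-in 1, by 1.61-fold for Kmt2a, 1.51-fold for Phc3, 1.43-fold for Kmt2c and 1.37-fold for Kmt2d, down to 1.02-fold for Setd1b. The median log2 ratio of knock-in 2 over knock-in 1 was 0.45 in these 7 and 0.01 in the other members. Over all 796 tested genes of that length it was 0.16, against -0.01 for shorter genes. Kmt2a and Phc3 were the members that differed by over 1.5-fold between the knock-in libraries (11.8% of tested genes did), and Suz12, Cbx8, Mtf2 and Pcgf5 did so between the wild-type libraries (21.3% of tested genes).

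The knock-in comparison asks whether tagging p300 was accompanied by another level of these genes. With edgeR's quasi-likelihood test, 0 of the 42 members passed the threshold (adjusted p under 0.05), where 0.0658% of 15191 tested genes did. At an unadjusted p under 0.05 there were 3 members, Rnf2, Eed and Cbx2, against 10.9% of tested genes. DESeq2 called 0 members, with 4 at an unadjusted p under 0.05 (9.19% of tested genes), where 0.81% of tested genes passed its adjusted threshold. Limma-voom called 0 members, with 5 at an unadjusted p under 0.05 (11.6% of tested genes), where 0.0263% of tested genes passed its adjusted threshold. Adjusted p-values over the 42 genes ran from 0.348 to 0.998. Log2 fold changes of knock-in over wild-type ran from -0.40 for Cbx2 to 0.54 for Rnf2, with a median of 0.06 (0.0010 over all tested genes), and 23 were above 0 (50.1% of tested genes). The median 95% interval reached 0.38 on the log2 scale to either side, so smaller differences were mostly not resolvable with 2 libraries per line. All 42 genes passed the filter on low counts.

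**Figure D3:**
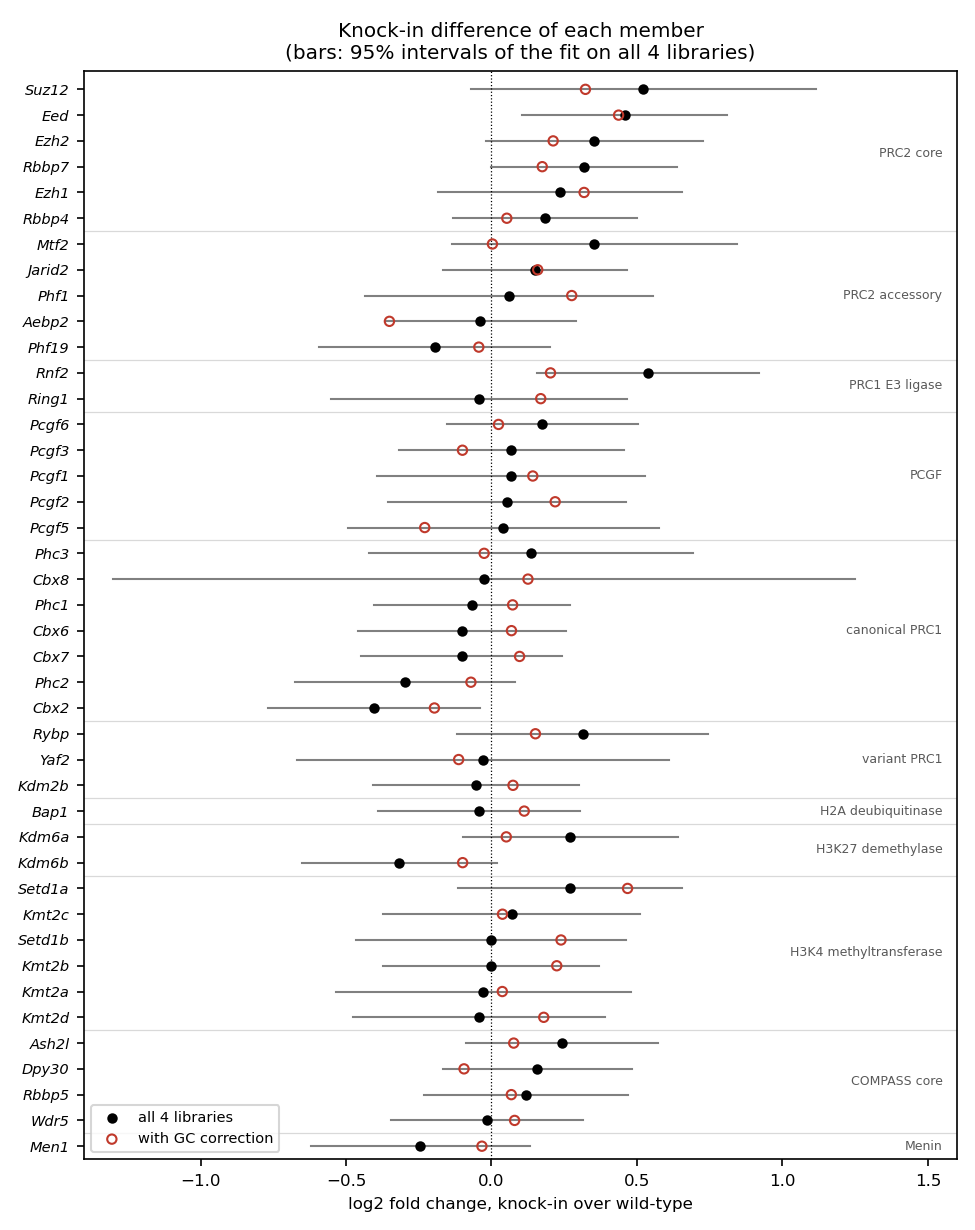
Log2 fold change of knock-in over wild-type for each member (black points, with 95% intervals from edgeR) and the value after a correction for transcript GC content (open red circles). All 6 PRC2 core genes lie above 0 in both, most intervals include 0, and Rnf2 and Mtf2 move toward 0 with the correction.

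All 6 PRC2 core genes had positive log2 fold changes, with a median of 0.34, and none passed the test. For 5 of them, all but Ezh1, both knock-in libraries lay above both wild-type libraries. That held for 15 of the 42 members and for 23.4% of tested genes (47.4% did not overlap in either direction). Eed (chromosome 7, 89954654 to 89980983, GRCm38) had 208 and 171 CPM in wild-type and 270 and 249 CPM in knock-in libraries, and edgeR estimated 0.46 on the log2 scale (SE 0.16, adjusted p = 0.391). Suz12 (chromosome 11, 79993106 to 80034123) had 224 and 115 CPM against 242 and 244 CPM. The edgeR estimate of 0.52 on the log2 scale (SE 0.26, adjusted p = 0.479) was 0.10 without wild-type 2 and 1.09 without wild-type 1. Ezh2 (chromosome 6, 47530139 to 47595341) had 156 and 121 against 180 and 173 CPM, or 0.35 on the log2 scale (SE 0.17, edgeR adjusted p = 0.466), and 0.17 without wild-type 2. Rbbp7 (chromosome X) had 327 and 301 against 398 and 385 CPM, or 0.32 on the log2 scale (SE 0.14, edgeR adjusted p = 0.455). Without wild-type 2 it was 0.25. The value for Ezh1 was 0.24 (SE 0.19), and 0.11 without wild-type 2, and that for Rbbp4 was 0.18 (SE 0.14) in both fits.

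With the GC correction the 6 genes stayed above 0 (median 0.27) and again 0 passed, with 3 at an unadjusted p under 0.05 (16.4% of tested genes). Eed had the lowest adjusted p of all members there, 0.0873 in edgeR, with a log2 fold change of 0.44. With the correction and without wild-type 2 it was 0.37 (edgeR adjusted p = 0.0519), and with neither 0.31. All 6 were above 0 in 14 of the 15 alternative settings tried, the exception being Rbbp4 at -0.10 with the GC correction and without wild-type 1. These settings reuse the same libraries, so their signs are not independent. Their transcripts have a GC content of 41.6% to 51.2%. Of the 5 whose lines did not overlap, wild-type 2 was the lowest library for Ezh2, Eed, Suz12 and Rbbp7.

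Among PRC2 accessory genes, Mtf2 had 291 and 177 CPM in wild-type and 296 and 303 CPM in knock-in libraries. Its difference of 0.35 on the log2 scale (SE 0.22, edgeR adjusted p = 0.535) was 0.02 without wild-type 2 and 0.0033 with the GC correction. Jarid2 had 517 and 535 against 571 and 597 CPM, 0.15 (SE 0.14), with no overlap between the lines. The estimate was -0.04 for Aebp2 (SE 0.15), 0.06 for Phf1 (SE 0.22) and -0.19 for Phf19 (SE 0.18).

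Rnf2 (chromosome 1, 151458004 to 151500955) had the largest value of any member. It had 104 and 80.2 CPM in wild-type and 137 and 131 CPM in knock-in libraries, which edgeR put at 0.54 on the log2 scale (SE 0.17, adjusted p = 0.348). Without wild-type 2 it was 0.35 and passed as the only member (edgeR adjusted p = 0.0390), in a fit where 4.39% of tested genes passed, 0.711% as higher. With the GC correction it was 0.20 (adjusted p = 0.418). Ring1 had a log2 fold change of -0.04 (SE 0.23). The 5 PCGF genes had values between 0.04 for Pcgf5 (SE 0.24) and 0.18 for Pcgf6 (SE 0.15).

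The lowest value of any member was that of Cbx2, in canonical PRC1. Cbx2 (chromosome 11, 119022962 to 119031270) had 37.8 and 40.05 CPM in wild-type and 29.4 and 29.4 CPM in knock-in libraries, so that the lines did not overlap. The estimate was -0.40 on the log2 scale (SE 0.16, edgeR adjusted p = 0.435), -0.37 without wild-type 2, -0.44 without wild-type 1 and -0.20 with the GC correction. Phc2 had 29.2 and 31.97 against 24.2 and 25.6 CPM, -0.30 (SE 0.17, edgeR adjusted p = 0.512), -0.25 without wild-type 2 and -0.07 with the GC correction. The dominant paralogs Cbx7 (-0.10, SE 0.15) and Phc1 (-0.07, SE 0.15) had values near 0, as did Cbx6 (-0.10, SE 0.16), while the scarce Cbx8 (-0.03, SE 0.57) and Phc3 (0.14, SE 0.25) were measured less precisely. Both knock-in libraries lay below both wild-type libraries for 5 members in all (Cbx2, Phc2, Phf19, Kdm6b and Men1), against 23.9% of tested genes.

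In variant PRC1, Rybp had 106 and 72.9 CPM against 108 and 114 CPM, a difference of 0.31 on the log2 scale (SE 0.19, edgeR adjusted p = 0.532) and of 0.06 without wild-type 2. Yaf2 and Kdm2b had values of -0.03 (SE 0.28) and -0.05 (SE 0.16), and Bap1 -0.04 (SE 0.15).

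The H3K27 demethylase genes had values of opposite sign. Kdm6b had 83.8 and 84.0 CPM in wild-type and 67.3 and 67.3 CPM in knock-in libraries, or -0.32 on the log2 scale (SE 0.15, edgeR adjusted p = 0.466), and -0.33 without wild-type 2. Kdm6a had 76.2 and 62.1 against 81.6 and 85.3 CPM, 0.27 (SE 0.16, edgeR adjusted p = 0.529), and 0.12 without wild-type 2. The share of Kdm6b in the pair was 59.5% ± 3.53 in wild-type and 49.3% ± 0.80 in knock-in libraries (SD, n = 2 each). An exact permutation of 2 against 2 libraries cannot give a two-sided p below 0.33, and this shift was not tested in another way. The transcripts differ in GC content (59.6% for Kdm6b, 42.5% for Kdm6a), and the difference of their log2 fold changes went from -0.59 to -0.15 with the GC correction.

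Most H3K4 methyltransferase genes had estimates near 0. Kmt2a, Kmt2b, Kmt2c, Kmt2d and Setd1b had log2 fold changes from -0.04 (Kmt2d, SE 0.19) to 0.07 (Kmt2c, SE 0.20), with -0.03 for Kmt2a (SE 0.22), -0.0013 for Kmt2b (SE 0.16) and -0.0012 for Setd1b (SE 0.21). Setd1a stood apart with 32.7 and 33.6 CPM in wild-type and 36.3 and 43.6 CPM in knock-in libraries, 0.27 (SE 0.17, edgeR adjusted p = 0.546), 0.27 without wild-type 2 and 0.47 with the GC correction (adjusted p = 0.109). In the shared core, Ash2l had 368 and 320 against 413 and 401 CPM, 0.24 (SE 0.15, edgeR adjusted p = 0.527), 0.13 without wild-type 2 and 0.08 with the GC correction. Dpy30, Rbbp5 and Wdr5 had values of 0.16 (SE 0.14), 0.12 (SE 0.16) and -0.02 (SE 0.15). Men1 had 86.7 and 109 CPM against 85.6 and 79.9 CPM, -0.24 (SE 0.17), -0.08 without wild-type 2 and -0.03 with the GC correction.

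Differences between the lines went with the base composition of the members. Over the 42 genes the deviation of wild-type 2 had a Spearman rho of 0.76 with GC content, and the log2 fold change one of -0.68 (0.22 after the GC correction), points that share the same 4 libraries. Of 14 members under 45% GC, 13 had a positive log2 fold change and their median was 0.26, as it was for the 3686 tested genes in that range (0.26). Of 11 members at 55% GC or more, 2 were positive, with a median of -0.04 against -0.18 for 3562 tested genes. The sign of the log2 fold change differed between the fits without wild-type 1 and without wild-type 2 for 18 members, and between the fits with and without the GC correction for 16.

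Calls among the members changed with the libraries used. Without wild-type 1, where the spread came from the knock-in pair alone, 11 members passed as higher (Ash2l, Eed, Ezh1, Ezh2, Kdm6a, Mtf2, Phc3, Rbbp7, Rnf2, Rybp and Suz12) and 4 as lower (Cbx2, Kdm6b, Men1 and Phc2), where 19% and 13.1% of tested genes did, 32.1% in all. With the GC correction as well, 4 passed as higher and 2 as lower (6.3% and 5.22% of tested genes, 11.5% in all). A block for crossed replicate numbers let Suz12 pass as higher (1.15% of tested genes did, 3.35% in either direction). Without wild-type 2 the call was Rnf2, given above. In the remaining fits 0 members passed, where 0.107% of tested genes passed without knock-in 1, 0.099% without knock-in 2, 1.3% with the replicate block, 1.15% with the GC correction, 2.7% with both, 4.17% with the GC correction and without wild-type 2, 1.31% with no filter on low counts, 0.0913% with a stricter one and 0.0856% with DESeq2's size factors. Over the 15 alternatives, 13 members kept 1 sign: Eed, Ezh1, Ezh2, Jarid2, Pcgf1, Phf1, Rbbp7, Rnf2, Rybp, Setd1a and Suz12 above 0, and Aebp2 and Cbx2 below 0. The alternatives reuse the same libraries, and the share of all tested genes that kept 1 sign was not counted.

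**Figure D4:**
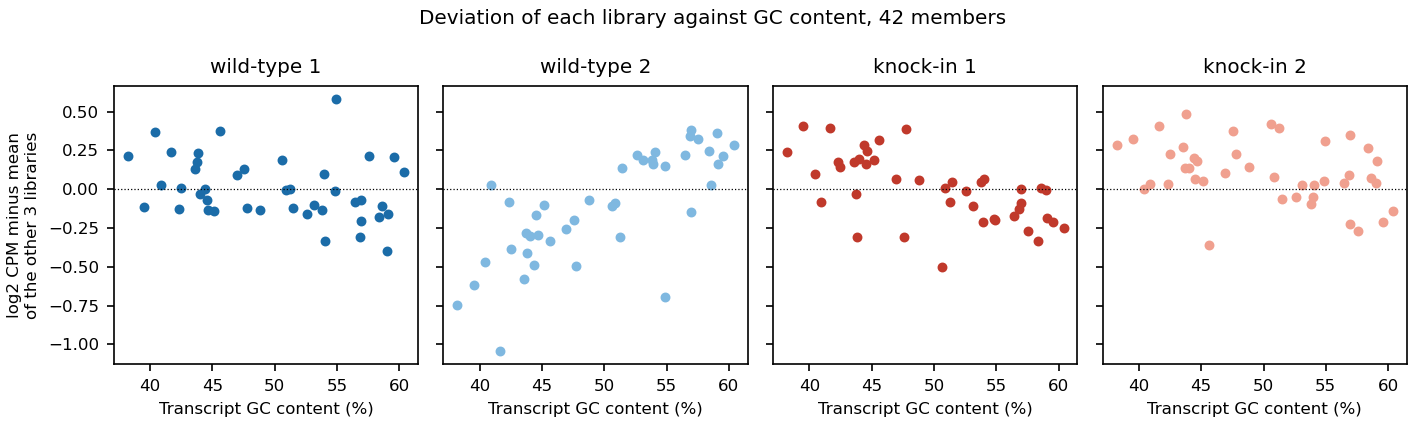
Log2 CPM of each library minus the mean of the other 3 libraries, against the GC content of the longest transcript (percent), for the 42 members, 1 panel per library. The points of wild-type 2 climb from below 0 at low GC to above 0 at high GC (Spearman rho 0.76), while those of the other libraries do not climb.

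The GC correction depends only on a gene's GC content, so ratios within pairs of similar GC content can change little by construction. The corrected values of such pairs are therefore no check on their differences. Cbx7 over Cbx2 (56.5% and 57.5% GC) had log2 TPM ratios of 1.96 and 2.11 in wild-type and 2.26 and 2.42 in knock-in libraries. The difference was 0.30, and 0.29 with the GC correction. Rbbp7 over Rbbp4 (44.6% and 45.2%) had ratios of 1.04 and 0.89 against 1.08 and 1.13, a difference of 0.14 and 0.12 with the correction. For pairs of unlike GC content the size depended on it: Rnf2 over Ring1 went from 0.58 to 0.03 and Mtf2 over Phf19 from 0.55 to 0.05, whereas Jarid2 over Aebp2 went from 0.19 to 0.51. The ratio of Cbx7 over Cbx6 differed by -0.0009 between the lines, and by 0.03 with the correction. The ratios are given as a description and were not tested.

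Other genes of these pathways were counted in the same way. Of 44 listed genes, among them Bmi1, Asxl1, Hcfc1 and Kdm5b, 43 could be tested and 0 passed in edgeR, with 5 at an unadjusted p under 0.05 (10.9% of tested genes). Without wild-type 1, 12 passed as higher and 3 as lower, where 32.1% of tested genes passed. Their median log2 fold change was 0.05 with all libraries. Those with the highest mean CPM, which is not scaled to length, were the H3K4 demethylase gene Kdm5b and the COMPASS cofactor gene Hcfc1. They had values of 0.05 (SE 0.14) and -0.01 (SE 0.16). By TPM other listed genes lay above both, among them Epop (561 to 736 TPM) and Elob (492 to 673 TPM).

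Developmental genes that Polycomb silences in embryonic stem cells were mostly at or near 0. Of 40 such genes, 26 did not pass the low-count filter, and Hoxa2, Hoxc6, Hoxd11, Pax3 and Nkx2-2 had no read in any library. None of the 14 tested genes passed in edgeR with all libraries, with 4 at an unadjusted p under 0.05 (10.9% of tested genes). These were Cdkn2a, Gsc and Eomes with negative values and Wt1 with a positive one (1.30, SE 0.38, edgeR adjusted p = 0.311), of which Gsc and Wt1 were chosen after their values were seen. Tbx3, the most abundant and a gene that pluripotent cells also use, had 209 and 196 against 204 and 191 CPM (log2 fold change -0.04, SE 0.14), and Eomes had -0.49 (SE 0.21). Cdkn2a, which encodes cell cycle inhibitors and is a well-known Polycomb target, was chosen after its values were seen. It had 4.83 and 9.26 CPM in wild-type and 2.05 and 2.62 CPM in knock-in libraries, so the lines did not overlap, and wild-type 2 was the highest. The edgeR estimate was -1.59 on the log2 scale (SE 0.35, adjusted p = 0.182). It passed as lower with the GC correction (-1.33, edgeR adjusted p = 0.0365, where 1.15% of tested genes passed) and with DESeq2 (adjusted p = 0.0171). In edgeR it also passed with no low-count filter (adjusted p = 1.27e-05), with the replicate block (0.00134) and with the crossed block (6.53e-05). With the replicate block and the GC correction together the edgeR adjusted p was 0.000603. Of tested genes, 1.31%, 1.3%, 3.35% and 2.7% passed in these fits, in the same order. Leaving out wild-type 1 gave -1.996, and leaving out wild-type 2 gave -1.07. With the GC correction as well these estimates were -1.635 and -0.98. Cdkn2a did not pass with limma-voom (adjusted p = 0.261), or in edgeR with DESeq2's size factors (0.168) or a stricter filter (0.149). Leaving out knock-in 1 gave -1.44, and leaving out knock-in 2 gave -1.77. The fibroblast and endoderm marker sums, mostly Thy1 and Pdgfrb or Lama1 and Col4a1, were lower in the same libraries. Their part in this value was not tested.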

How the data were processed

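The authors deposited raw read counts per gene. Per the submitters' processing notes, the tools were STAR 2.5.3a and Trim Galore and the genome was GRCm38 (mm10), and the annotation release is not given in the sources used here. The deposited unstranded counts were used, since the strand columns split evenly (50.2% to 50.5% reverse), so overlapping and antisense genes cannot be told apart. Summary rows were left out: unmapped reads were 2.385% to 4.391%, multimapping 3.80% to 4.463%, outside features 2.227% to 3.666% and ambiguous 5.965% to 6.382%. GENCODE M21 matched 54809 of 54838 identifiers and supplied exon lengths, coordinates and GC content of the longest transcript.

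The main test was edgeR 4.0.16 (R 4.3.3) with TMM scaling, filterByExpr (minimum count 10), the quasi-likelihood F test on genotype and Benjamini-Hochberg adjustment over 15191 genes, at a threshold of 0.05. SEs were derived from the F statistic. The GC correction used as offset a spline on GC content (5 degrees of freedom) fitted to each library's departure from the gene means, and so also removes any difference between lines that follows GC. Leaving out a library takes the spread from the other line's pair. Other settings were DESeq2 1.42.0, limma-voom (3.58.1), other filters and size factors, and a replicate block. Near-identical copies were sought with BLAST 2.17.0.

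When the comparison of the 2 lines was simulated (14941 genes), 65% of 100 planted 2-fold and 96% of 100 planted 4-fold changes were recovered, with 11 false calls among 172. These figures describe the simulation only. Recovery in the real libraries, of which wild-type 2 stood apart, was not tested. The series' design text calls the replicates biological. P-values measure only the spread between these libraries.

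Members and lists were chosen with earlier results of these data known. All members are named with levels. Statistics were given for the 12 with the smallest p and for the first and last paralog of each family. From the further pathway genes and the target genes, those past the threshold or else the 2 with the highest mean CPM were named.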

Additional observations from a re-analysis of the deposited data

How the results depend on the processing

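The number of genes called was 10 with all libraries, and 0 of them were Polycomb or Trithorax members. It was 354 with no low-count filter, 123 with DESeq2, 4 with limma-voom, 175 with the GC correction, 674 with the GC correction and without wild-type 2, and 1800 with the GC correction and without wild-type 1. Leaving out 1 library gave 16 to 5015 genes and 0 to 15 members. The 15 members, 11 higher and 4 lower, came without wild-type 1, where 32.1% of all tested genes passed, and the 1 member without wild-type 2 was Rnf2. With the GC correction and without wild-type 1 there were 6 members, 4 higher (Eed, Ezh1, Setd1a and Suz12) and 2 lower (Aebp2 and Dpy30), where 11.5% of tested genes passed. Dpy30 turned from 0.16 to -0.33 there. With the replicate number as a block 197 genes and 0 members passed, and with the block and the GC correction 410 genes and 0 members. The labels do not say that equal numbers mark a shared batch, and same-numbered deviations had a correlation of -0.12. A crossed pairing, added after the data were seen, gave 509 genes and 1 member. Of 629 member values under the alternatives, 606 stayed on the same side of the threshold without a called change of sign, 22 newly passed, and 109 had another sign than with all libraries.

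Paralog shares depended on the length used. With the longest transcript the share was 85.3% for Ezh2, 58.7% for Rbbp7, 79.9% for Jarid2, 43.8% for Pcgf6, 68.5% for Cbx7, 93.6% for Phc1, 47.0% for Kdm6b, 45.7% for Kmt2d and 53.3% for Setd1a. With the median transcript length, which counts many short annotated fragments, it was 78.4% for Ezh2, 55% for Rbbp7, 92.3% for Jarid2, 95.7% for Rnf2, 22.1% for Pcgf6, 76.2% for Cbx7, 82.5% for Phc1, 97.9% for Rybp, 39.0% for Kdm6b, 92.0% for Kmt2b, 85.8% for Kmt2d and 84.4% for Setd1a. Without length scaling it was 40.6% for Rbbp7, 69.4% for Cbx7, 91.9% for Phc1, 94.8% for Rybp, 68.4% for Kmt2b and 45.6% for Setd1a. With exon bases free of other genes, a length added after the data were seen, it was 64.1% for Rbbp7 and 75.5% for Setd1a. The leading paralog was the same with every length for Ezh2, Jarid2, Mtf2, Rnf2, Cbx7, Phc1, Rybp and Kmt2b. Depth limits Cbx8 above all.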
